A study of Mus musculus with 120 samples.

Results

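The central lateral nucleus (CL) of the mouse thalamus was set against its neighbours in the rostral intralaminar group, the paracentral (PCN) and central medial (CM) nuclei. Of 120 bulk RNA-seq libraries in the series, 4 were titled for CL labelled with AAV from the striatum. They were compared with the equally weighted mean of 4 PCN and 4 CM libraries labelled the same way. Each library held a small pool of labelled neurons that were picked by hand. The retrograde virus rAAV2retro, taken up by axon endings, carried GFP in all CL libraries and tdTomato in all PCN and CM libraries. All animals were recorded as wild type. The CL animals were 4 females with a recorded age of 98 to 103. The PCN and CM libraries came from 4 other animals with a recorded age of 125 to 136, with males as replicates 1 and 2 and females as replicates 3 and 4, and each animal gave 1 PCN and 1 CM library of the same number. The unit of age is not given in the sources used here. All 12 libraries were amplified on 1 date. No animal stood on both sides, so nucleus, reporter, age and cohort of animals cannot be told apart in this comparison, and neither in part can sex. Another 3 CM libraries, from males with a recorded age of 98 to 99, were labelled from the striatum with the dye DiI, amplified on another date, and kept apart as a second measurement of CM.

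Intralaminar nuclei lie within the fibre sheet that divides the thalamus. Their glutamatergic neurons send axons to the striatum and, more diffusely, to the cortex, and they are known for roles in arousal, attention and action. CL, PCN and CM make up the rostral group, with CL most lateral and CM on the midline, while the parafascicular nucleus (PF) belongs to the caudal group.

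The 12 libraries held 13948833 to 21523515 counted reads and 12207 to 14784 genes with a read. CL libraries were made from 36 to 135 cells, PCN libraries from 22 to 82 and CM libraries from 52 to 99. The PCN library of 22 cells, replicate 4, stood apart on the first principal component of the 500 most variable genes outside the sex-linked genes. That component held 18.0% of the variance, and this library lay at 72.1 with the other 11 between -17.4 and 8.52. On the second component, with 12.8% of the variance, the CL libraries lay between -45.9 and -10.8, the PCN libraries between -5.66 and 5.70 and the CM libraries between 18.4 and 24.1. The nuclei did not overlap there, and CL replicate 3, from 36 cells, was the library at -45.9, far from the next at -15.7. These positions are a description, with no test.

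Levels in CL were close to those in PCN and CM. Levels are given in CPM, counts scaled to the size of the library. Over genes with at least 10 CPM the median Pearson correlation of log2 CPM was 0.864 between a CL and a PCN library and 0.84 between a CL and a CM library, against 0.882 between CL libraries, 0.818 between PCN libraries and 0.831 between CM libraries. The pairs of PCN libraries ran from 0.744 to 0.894 and include the library of 22 cells, whose effect on these medians was not tested. These correlations run across genes, which are not independent replicates. Of 8772 genes that averaged 10 CPM or more, 96.1% had a fitted difference under 2-fold. The median 95% interval of a difference reached 1.04 to either side on the log2 scale, which is 2.06-fold. In this fit, a smaller fitted difference in a gene with such an interval did not reach an unadjusted p below 0.05. The interval is not adjusted for the number of genes tested, so a call in a typical gene needed a larger difference still.

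The genes that mark glutamatergic thalamic neurons were at like levels. Slc17a6, the vesicular glutamate transporter of thalamic neurons, had 1578, 1298, 1496 and 1433 CPM in CL libraries, inside the range of 1209 to 2168 CPM in PCN and CM libraries. Tcf7l2, a transcription factor that keeps up thalamic identity, averaged 1557 ± 95.4 CPM in CL (SD, n = 4) and 1602 ± 204 CPM in PCN and CM (SD, n = 8). For both genes the CL range lay inside that of the others. Slc17a7, a vesicular transporter found in many cortex-projecting thalamic neurons, had 1.98 to 9.19 CPM in CL and 0 to 6.19 CPM in PCN and CM, far under its 518 CPM in the anterodorsal nucleus, the highest of 22 nuclei. Gbx2, a homeobox factor of the developing thalamus, had 80.4 to 119.7 CPM in CL and 59.5 to 129.5 CPM in PCN and CM. These 4 genes and the 9 in the next paragraphs were named whatever their values, and all had an adjusted p of 1.

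The calcium-binding proteins that anatomists use to part thalamic nuclei overlapped too. Calb1, calbindin, averaged 328 ± 21.1 CPM in CL (SD, n = 4) and 342 ± 32.98 CPM in PCN and CM (SD, n = 8). Necab1, a neuronal calcium-binding protein, averaged 1974 ± 49.3 CPM in CL (SD, n = 4) and 1988 ± 196 CPM in PCN and CM (SD, n = 8). For both, the CL libraries lay within the range of the others. Calb2, calretinin, was uneven within CL, with 280.3, 34.5, 137 and 94.5 CPM, against 29.3 to 80.2 CPM in PCN and CM. Pvalb, parvalbumin, had at most 2.15 CPM in CL and at most 2.64 CPM in PCN and CM.

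Cnr1, the cannabinoid receptor CB1, had 264, 73.6, 302 and 204 CPM in CL and 10.4 to 115 CPM in PCN and CM. All CL libraries but replicate 2 lay above all 8 others, and CL had the highest mean of 22 nuclei, 211 CPM, yet the difference was not called (log2 fold change 1.56, 95% interval -0.83 to 3.94). Cck, the peptide cholecystokinin, had 449 to 843 CPM in CL and 619 to 1296 CPM in PCN and CM. Syn2, a synaptic vesicle protein, had 1217 to 1598 CPM in CL and 1016 to 1576 CPM in PCN and CM. Both overlapped. Grm8, a metabotropic glutamate receptor, had 54.7 to 78.4 CPM in CL and 46.4 to 107 CPM in PCN and CM. Fos, the activity-induced transcription factor, averaged 58.5 ± 32.1 CPM in CL (SD, n = 4) and 51.3 ± 20.5 CPM in PCN and CM (SD, n = 8).

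Of 16527 genes tested, 9 differed between CL and the mean of PCN and CM, which is 0.0545%, at a Benjamini-Hochberg adjusted p below 0.05 in edgeR's quasi-likelihood test. Higher in CL were 3 genes, 0.0182% of those tested, namely Zfhx4, Dab1 and Bmp2. Lower were 6, or 0.0363%, namely Etl4, Nrxn3, Cnih3, Sox5 and the Y-linked Ddx3y and Eif2s3y. At an unadjusted p below 0.05 stood 869 genes, 5.26% of those tested, with 669 higher (4.05%) and 200 lower (1.21%). Of the 669 higher, 74.4% were predicted gene models, pseudogenes or small RNAs, against 31.4% of all genes tested, and 204 had no read in any PCN or CM library. Among the 8772 genes with at least 10 CPM, 143 reached an unadjusted p below 0.05, 1.63% of them, 69 higher and 74 lower.

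The calls changed when single libraries were left out. Without CL replicate 3 edgeR called none, with 720 genes at an unadjusted p below 0.05, while DESeq2 with all libraries called 399. Leaving out CL replicate 4 left 2 calls, PCN replicate 2 left 3, CL replicate 1 left 4, and CM replicate 2 or PCN replicate 4 left 5. PCN and CM libraries of the same number share an animal. With their counts summed per animal, 10 genes were called, and 1 of the 9, Zfhx4, was among them. Etl4, Nrxn3, Cnih3, Dab1 and Bmp2 were not called there, with adjusted p-values of 0.288, 0.443, 0.150, 0.130 and 0.114 in that order. The called genes are therefore given by their level in every library. In bulk pools, fewer cells that express a gene and less of its RNA per cell cannot be told apart.

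**Figure D1:**
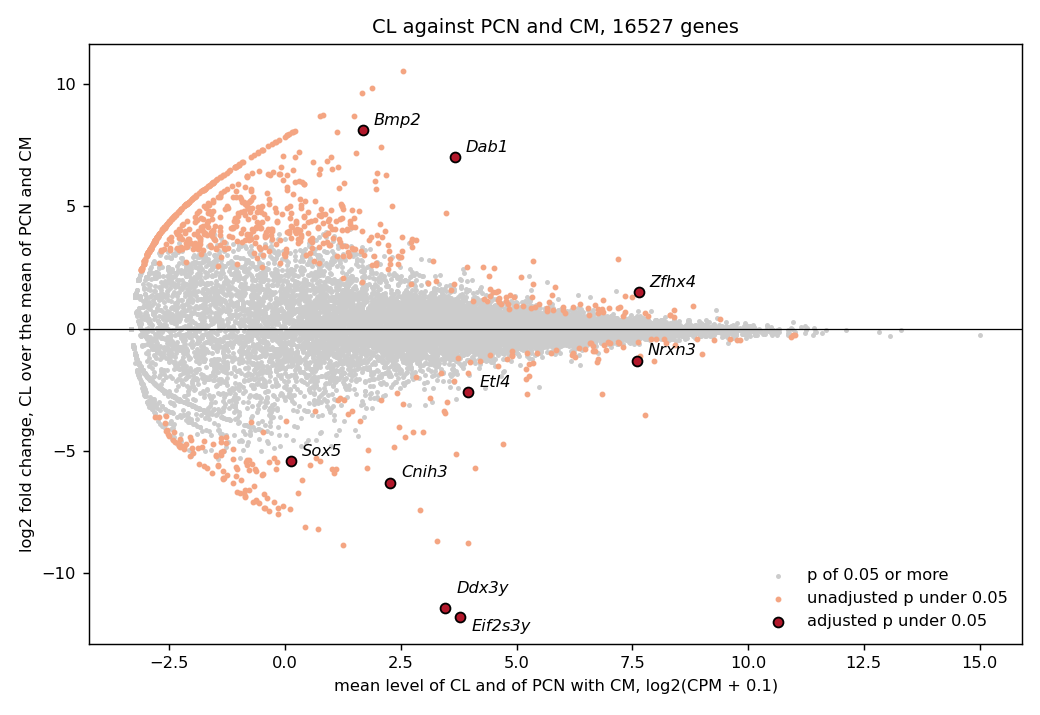
Each point is a gene, with its mean level in CL and in PCN with CM on the x axis (log2 of CPM plus 0.1) and the log2 fold change of CL over the mean of PCN and CM on the y axis. The 9 called genes are named, and most points with only an unadjusted p below 0.05 (orange) lie at low levels and above 0.

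Zfhx4 and Sox5 encode transcription factors. Zfhx4, a zinc finger homeobox protein on chromosome 3 (5218526 to 5415857, mm10), had 256, 323, 323 and 263 CPM in CL libraries, against 129, 185, 150.5 and 82.6 CPM in PCN libraries and 65.4, 98.1, 63.8 and 86.8 CPM in CM libraries. Every CL library was above every PCN and CM library. Its log2 fold change was 1.49 ± 0.305 (SE), with an adjusted p of 0.0280. The adjusted p was 0.0181 in female libraries alone. The gene was not called without PCN replicate 4, CL replicate 2, CL replicate 3 or CL replicate 4 (adjusted p 0.0515 to 0.117). The 3 DiI libraries of CM had 224, 82.8 and 155 CPM, again all under CL, though CL against these alone was not called (log2 fold change 0.92 ± 0.403 (SE), adjusted p = 0.871).

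Sox5, a SoxD transcription factor known from cortical projection neurons, lies on chromosome 6 (143828425 to 144781977, mm10). It had 0, 0, 0 and 0.131 CPM in CL, 3 reads in all, against 2.32, 0, 5.75 and 0.981 CPM in PCN and 0.123, 0.543, 0 and 5.93 CPM in CM. The ranges overlap at 0, and most of the PCN and CM reads came from 3 libraries. As a share of all counted reads, its reads were 52.3 times as many in PCN and CM as in CL, with a counting interval of 17.7 to 255 that leaves out the spread between animals. The adjusted p was 0.0353, and the call was lost without PCN replicate 3, CM replicate 4, CL replicate 1, CL replicate 2, CL replicate 3 or CL replicate 4 (adjusted p 0.0614 to 0.405). The DiI libraries of CM averaged 2.37 CPM, and CL against these was called (adjusted p = 0.032). CL against the AAV libraries of CM alone was not called (adjusted p = 0.0818). Of 30 tested genes on a list of thalamic transcription factors, Zfhx4 and Sox5 were called, beside 0.0545% of all genes tested. The list's median log2 fold change was -0.01, beside 0 for all genes tested.

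Dab1 and Bmp2 belong to signalling pathways. Dab1, the adaptor that carries the reelin signal inside neurons, lies on chromosome 4 (103619359 to 104744844, mm10). It had 37.04, 22.7, 15.005 and 22.6 CPM in CL, against 4.09, 0.193, 2.43 and 0 CPM in PCN and 0, 0, 0 and 0.0490 CPM in CM. All CL libraries were above all others, and the 4 CM libraries held 1 read together. As a share of all counted reads, its reads were 26.5 times as many in CL as in PCN and CM (counting interval 22.4 to 31.5), and the adjusted p was 0.0335. The call held without CL replicate 2 or PCN replicate 1 (adjusted p 0.0461 to 0.0470) and was lost without any other 1 of the 12 libraries, with adjusted p-values up to 0.111. The DiI libraries of CM, at 0, 0 and 0.116 CPM, were as low as the others of CM, and CL against these was not called (adjusted p = 0.341).

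Bmp2, a secreted bone morphogenetic protein, lies on chromosome 2 (133552159 to 133562885, mm10) and had 9.61, 3.69, 8.18 and 3.36 CPM in CL. Of the 8 PCN and CM libraries, PCN replicate 1 had 5 reads, or 0.215 CPM, and the others none. Its adjusted p was 0.0335, and the call held and was lost without the same libraries as that of Dab1, with adjusted p-values up to 0.117. The DiI libraries of CM had 1.82, 0.0640 and 1.69 CPM, under every CL library but above the AAV libraries of CM, and CL against these was not called (adjusted p = 1).

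Nrxn3 and Cnih3 act at synapses. Nrxn3, a presynaptic adhesion molecule of the neurexin family, lies on chromosome 12 (88722876 to 90334935, mm10). It had 150.2, 179.8, 33.8 and 75.9 CPM in CL, against 242, 219, 163 and 291 CPM in PCN and 247, 319, 199.6 and 535 CPM in CM. CL replicate 2 lay above the lowest PCN library, so the ranges overlap. The log2 fold change was -1.31 ± 0.283 (SE, adjusted p = 0.0335), and the call was lost without PCN replicate 2, PCN replicate 4, CM replicate 4, CL replicate 3 or CL replicate 4 (adjusted p 0.0525 to 0.317). All 3 DiI libraries of CM, at 449, 313 and 194 CPM, were above all CL libraries, and CL against these was called (log2 fold change -1.53 ± 0.331 (SE), adjusted p = 0.0196).

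Cnih3, a cornichon protein that accompanies AMPA-type glutamate receptors, lies on chromosome 1 (181352628 to 181460641, mm10). CL libraries had 0, 0.110, 0 and 0.306 CPM, 9 reads in all. PCN libraries had 1.33, 25.8, 13.9 and 0.0613 CPM and CM libraries 0.370, 2.17, 26.7 and 4.65 CPM. Most of these reads came from PCN replicates 2 and 3 and CM replicate 3, and PCN replicate 4 was within the CL range. As a share of all counted reads, its reads were 76.9 times as many in PCN and CM as in CL (counting interval 40.4 to 169), with an adjusted p of 0.0335 that was lost without PCN replicate 2, CM replicate 3, CL replicate 1, CL replicate 2, CL replicate 3 or CL replicate 4 (adjusted p 0.0515 to 0.161). The DiI libraries of CM had 31.7, 4.10 and 14.7 CPM, all above CL (adjusted p = 0.0108). Of the 30 tested members of the glutamate receptor list, which includes such auxiliary subunits, Cnih3 alone was called, beside 0.0545% of all genes tested. The list's median log2 fold change was 0.02.

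Etl4, first described as an enhancer trap locus, had the smallest adjusted p, 0.00729. It lies on chromosome 2 (19909780 to 20810713, mm10). It had 3.91, 3.36, 0.614 and 9.13 CPM in CL, against 13.6, 13.1, 18.05 and 34.5 CPM in PCN and 14.5, 29.5, 36.5 and 53.3 CPM in CM. Every CL library was under every PCN and CM library. The log2 fold change was -2.59 ± 0.482 (SE). The call was lost without CL replicate 3 (adjusted p = 0.117), with counts summed per animal (adjusted p = 0.288) and in a fit of only the 12 libraries (adjusted p = 0.258). The DiI libraries of CM had 92.9, 18.3 and 53.6 CPM, and CL against these gave a log2 fold change of -3.68 ± 0.555 (SE, adjusted p = 2.06e-05).

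Scg2, secretogranin II of dense-core vesicles, had 145, 137, 169 and 125 CPM in CL, against 280.2, 287, 252 and 579 CPM in PCN and 383, 321, 381 and 362 CPM in CM. Every CL library was under every PCN and CM library, but the difference was not called (adjusted p = 0.102). Its adjusted p was 0.00914 with the PCN and CM counts of each animal summed and 0.0114 in a fit of only the 12 libraries, but 0.329 without PCN replicate 4, the library with the highest level.

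**Figure D2:**
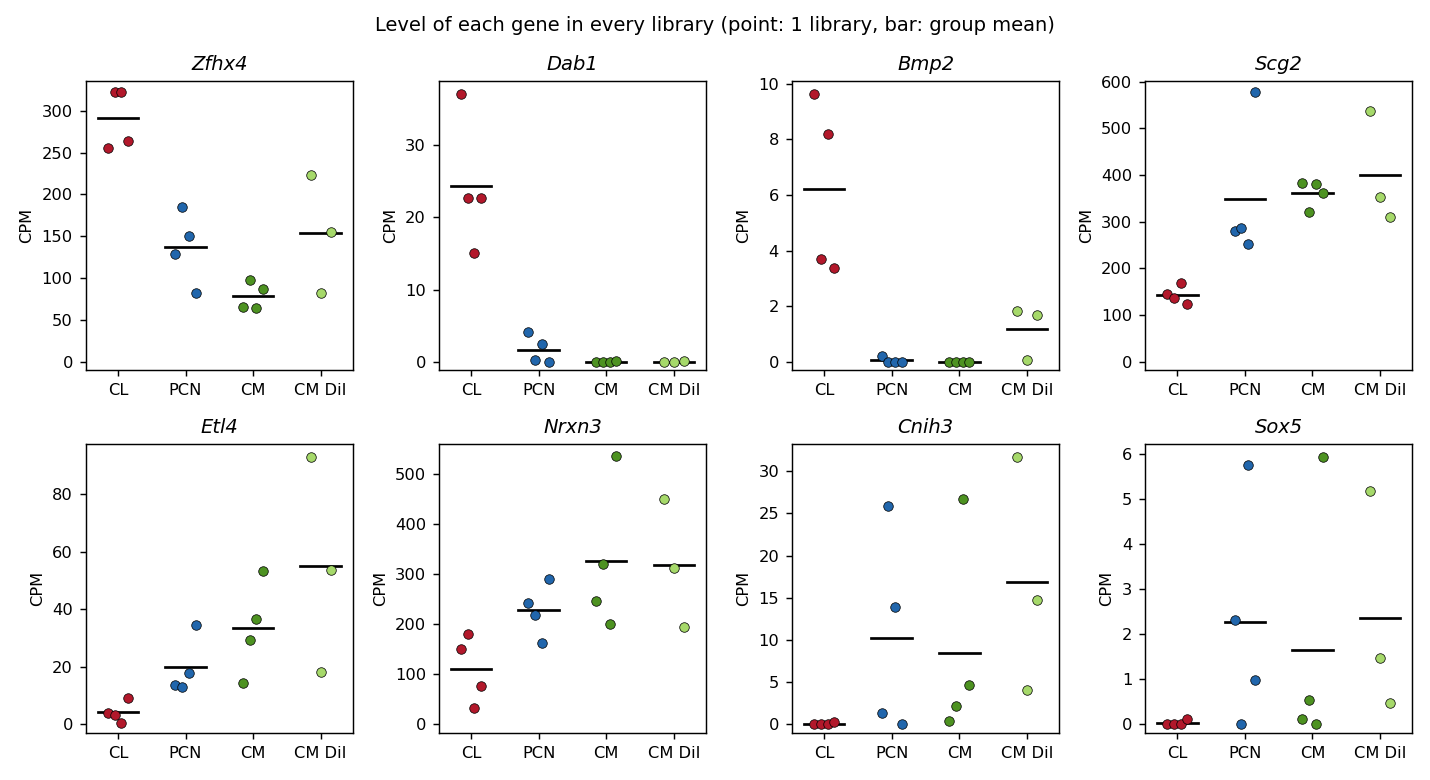
CPM of the 7 autosomal called genes and Scg2 (y axis, linear, own scale per panel) in each CL, PCN, CM and CM DiI library (points), with group means as bars. CL libraries lie above all PCN and CM libraries for Zfhx4, Dab1 and Bmp2 and under all of them for Scg2 and Etl4.

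The same genes were read in the other GFP-labelled striatal groups, PVT (paraventricular), IMD (intermediodorsal), PF and SPA (subparafascicular area). Dab1 averaged 24.3 CPM in CL and 9.33 to 14.97 CPM in these 4 groups, against 1.68 CPM in PCN and 0.0122 CPM in CM. Bmp2 averaged 6.21 CPM in CL and 4.54 to 7.53 CPM in the 4 groups, against 0.0538 CPM in PCN and no read in CM. For both genes CL stood with the other GFP groups. Cnih3 averaged 0.104 CPM in CL and 0.182 to 1.86 CPM in the 4 groups, against 10.3 CPM in PCN and 8.47 CPM in CM. Sox5 averaged 0.0328 CPM in CL and 0 to 1.82 CPM in the 4 groups, against 2.26 CPM in PCN and 1.65 CPM in CM. Cnih3 was likewise lower in all GFP groups than in PCN and CM, while Sox5 in SPA reached the level of CM.

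No nucleus was labelled with both GFP and tdTomato, so reporter and nucleus cannot be told apart for these 4 genes. The DiI libraries of CM, without either reporter, averaged 0.0388 CPM of Dab1, 1.19 CPM of Bmp2, 16.8 CPM of Cnih3 and 2.37 CPM of Sox5. Over the DiI groups labelled from the cortex, Dab1 averaged 0.0279 to 66.7 CPM. Bmp2 averaged 0 to 20.2 CPM there, with the highest mean in the anterodorsal nucleus. The part of the reporter was not tested. Etl4 averaged 4.25 CPM in CL and 21.4 to 25.5 CPM in PVT, IMD, PF and SPA, against 19.8 CPM in PCN and 33.5 CPM in CM. The CL mean was the lowest of these 7 groups, a comparison of means with no test of the reporter. Nrxn3 averaged 109.9 CPM in CL and 108 CPM in PVT, with 199.7 to 269 CPM in IMD, PF and SPA. Zfhx4 averaged 291 CPM in CL and 260.0 to 261 CPM in PF and SPA, with 167 CPM in PVT and 109 CPM in IMD.

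**Figure D3:**
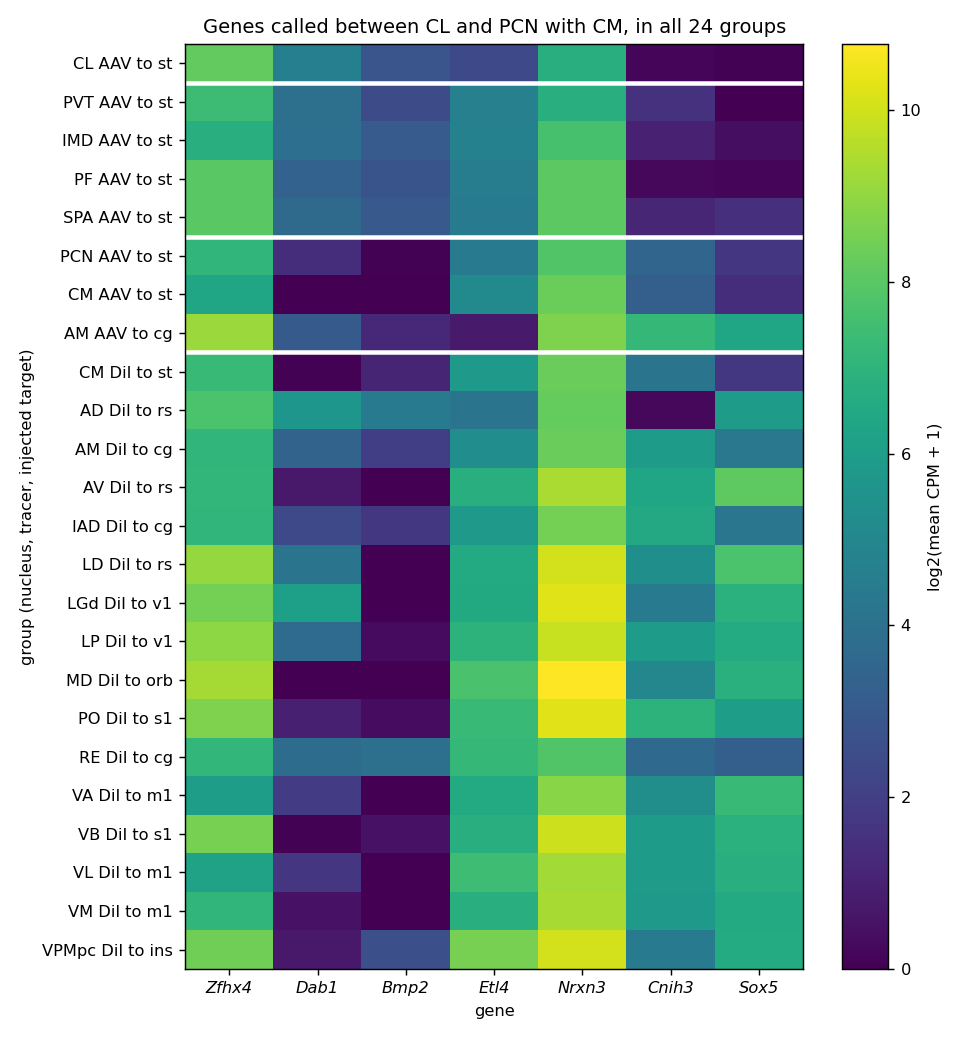
Mean level of the 7 autosomal called genes (columns, log2 of CPM plus 1) in all 24 groups (rows), with CL on top, then the other GFP groups, the tdTomato groups and the DiI groups, divided by white lines. Dab1 and Bmp2 are present in CL and the other GFP groups and low or at 0 in PCN and CM, while Etl4 is lower in CL than in the other groups labelled from the striatum.

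The Y-linked calls followed the recorded sex. Ddx3y and Eif2s3y had no read in the 4 CL libraries, all female. Ddx3y had 36.9 and 26.5 CPM in the male PCN libraries and 48.8 and 62.4 CPM in the male CM libraries, and Eif2s3y 41.4 and 49.4 CPM and 77.0 and 51.1 CPM. In female PCN and CM libraries both were at or close to 0, at most 0.245 CPM for Ddx3y and 0.149 CPM for Eif2s3y. With sex as a term in the fit, 7 genes were called, 5 of them among the 9. Zfhx4, Dab1, Etl4, Cnih3 and Sox5 then had adjusted p-values between 0.00715 and 0.0312, while Nrxn3 and Bmp2 were not called (adjusted p = 0.0709 for each). With female libraries only, 4 of CL against 2 of PCN and 2 of CM, 2 genes were called, Zfhx4 among them.

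CL against PCN alone and against CM alone share the CL libraries and are given side by side. No gene was called by edgeR between CL and PCN (0% of genes tested, with 726 or 4.39% at an unadjusted p below 0.05, and 385 by DESeq2). Between CL and CM 8 genes were called, 0.0484%, with 807 or 4.88% at an unadjusted p below 0.05. Zfhx4 was higher, with a log2 fold change of 1.89 against CM and 1.09 against PCN. Lower were Etl4 (-2.96 against CM and -2.21 against PCN), Nrxn3 (-1.57 and -1.06), Cnih3, Ddx3y, Eif2s3y, Cntnap5a and Rundc1. Without CL replicate 3 edgeR called none of the 8 (658 genes at an unadjusted p below 0.05), and without CL replicate 4, CL replicate 1, CM replicate 1 and CL replicate 2 it called 2, 3, 3 and 4. No gene was called by edgeR between PCN and CM themselves (0%, with 931 or 5.63% at an unadjusted p below 0.05 and 424 calls by DESeq2).

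Cntnap5a, of the contactin-associated adhesion proteins, had 0, 4.19, 1.36 and 0.437 CPM in CL, against 7.06, 7.39, 10.3 and 7.05 CPM in PCN and 37.04, 22.1, 26.2 and 44.5 CPM in CM. No library of one nucleus overlapped with those of another. Its adjusted p was 0.0399 against CM, 1 against PCN and 0.0250 against the DiI libraries of CM, which had 55.6, 35.2 and 12.7 CPM. The call of Rundc1 rested on 1 library, since CM replicate 1 had 3202 CPM and the other 3 CM libraries 7.22 to 24.6 CPM, beside 5.39 to 18.9 CPM in CL.

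With CM taken from its DiI libraries, 15 genes were called between CL and CM, 6 of which were among the 8. Pcp4l1, a relative of the calmodulin-binding protein PCP4, averaged 59.2 CPM in CL and 244 CPM in these CM libraries (adjusted p = 0.00452). Ret, the receptor tyrosine kinase of GDNF family ligands, averaged 0.518 CPM in CL and 21.5 CPM there (adjusted p = 0.0204). Jam2, a junctional adhesion molecule, averaged 157 CPM in CL and 26.5 CPM there (adjusted p = 0.0250). Against the AAV libraries of CM none of these 3 was called, with adjusted p-values of 0.701, 0.900 and 0.233 in that order.

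Gene families of neuronal function were described over their members with at least 10 CPM, beside a median log2 fold change of -0.03 for all genes at that level. Of these members Zfhx4 and Nrxn3 were called in CL against PCN and CM, and no other. Of all 8772 genes at that level 5 were called. Voltage-gated potassium channels had a median of 0.02 over 26 members, other potassium and HCN channels -0.07 over 19, sodium channels -0.01 over 12 and calcium channels 0.04 over 27. Glutamate receptors had a median of 0.05 over 28 members and GABA and glycine receptors -0.14 over 18. In these families Kcna1 and Cacna1e alone reached an unadjusted p below 0.05, as did 1.63% of all genes with at least 10 CPM. Kcna1, a Kv1 channel subunit of axons, had 5.51 to 33.98 CPM in CL and 38.3 to 103 CPM in PCN and CM (adjusted p = 0.404). Cacna1e, the R-type calcium channel, had 29.6 to 102 CPM in CL and 3.43 to 54.04 CPM in PCN and CM (adjusted p = 0.379).

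Cell adhesion genes held members on both sides. Of 20 cadherins and protocadherins with at least 10 CPM, 3 were higher and 2 lower at an unadjusted p below 0.05. Among all genes with at least 10 CPM, 1.63% reached that p. Cdh2, N-cadherin, had 161, 206, 119.4 and 166 CPM in CL, against 75.4 to 129.8 CPM in PCN and 61.1 to 103 CPM in CM (adjusted p = 0.106). Cdh4, R-cadherin, averaged 13.8 ± 5.37 CPM in CL (SD, n = 4) and 60.2 ± 40.2 CPM in PCN and CM (SD, n = 8), with an adjusted edgeR p of 0.612. Neither passed the adjustment. Of 55 other synaptic adhesion genes 4 were higher and 2 lower at that level. Opcml, a GPI-anchored adhesion molecule, had 587, 643, 541 and 568 CPM in CL, above all of PCN (282 to 496 CPM) and CM (166 to 322 CPM), with an adjusted p of 0.379. Its adjusted p was 0.0412 in a fit of only the 12 libraries, but 0.0539 with counts summed per animal and 0.138 with DESeq2.

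Axon guidance genes had a list median of 0.31 over 37 members, with 3 higher and 1 lower at an unadjusted p below 0.05. That p was reached by 1.63% of all genes with at least 10 CPM. Slit3, a secreted ligand of Robo receptors, had 71.1, 91.2, 130.5 and 47.9 CPM in CL, against 32.9 to 44.2 CPM in PCN and 13.5 to 24.3 CPM in CM (adjusted p = 0.312). Rgma, a GPI-anchored repulsive cue, had 50.1 to 118 CPM in CL and 15.001 to 42.4 CPM in PCN and CM (adjusted p = 0.665). For both genes all CL libraries lay above all others. Both were named after their values were seen, and the share of all genes with such ranges was not counted. Sema6a, a transmembrane semaphorin, had 60.7 to 84.8 CPM in CL and 13.03 to 41.4 CPM in CM, with 20.4, 29.3, 29.5 and 82.9 CPM in PCN, where the last value is that of the library of 22 cells (adjusted p = 0.292). Robo2, a Slit receptor, had 34.4 to 74.1 CPM in CL and 56.2 to 160.1 CPM in PCN and CM (adjusted p = 0.886). None of the 4 passed the adjustment.

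Among secreted and release genes the largest differences were uneven between libraries. Calca, which encodes the peptide CGRP, had 0, 0.0551, 0.273 and 2.05 CPM in CL, against 11.02, 24.4, 56.6 and 0.123 CPM in PCN and 70.9, 18.8, 70.3 and 16.5 CPM in CM (adjusted p = 0.370). PCN replicate 4 overlapped with CL. Of 33 vesicle release genes 3 were lower at an unadjusted p below 0.05 and none higher. In either direction, 1.63% of all genes with at least 10 CPM reached that p. Cplx2, a complexin that regulates vesicle fusion, had 6.03 to 12.8 CPM in CL and 20.4 to 165 CPM in PCN and CM (adjusted p = 0.633). Syt2, a fast calcium sensor of release, averaged 0.583 CPM in CL, 4.80 CPM in PCN and 25.4 CPM in CM (adjusted p = 0.780). The medians were -0.08 for release genes and -0.10 over 20 neuropeptides and secreted organisers.

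**Figure D4:**
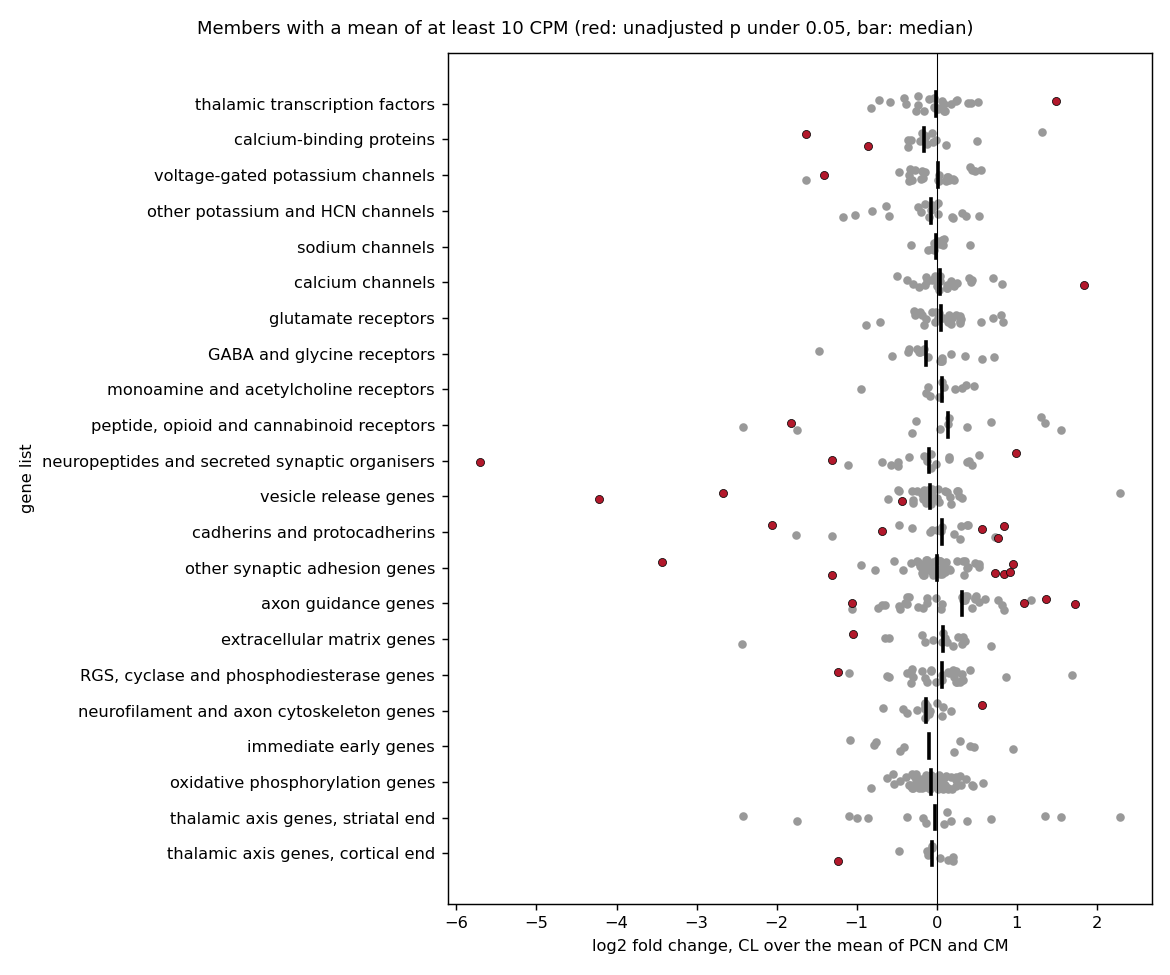
Log2 fold change of CL over the mean of PCN and CM (x axis) for each member with at least 10 CPM of 22 gene lists (rows), with bars at list medians and red points at an unadjusted p below 0.05. Most medians lie close to 0, and that of the axon guidance genes lies at 0.31.

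None of 72 oxidative phosphorylation genes reached an unadjusted p below 0.05, with log2 fold changes between -0.83 and 0.57 and a median of -0.07. None of 10 immediate early genes did so either, with a median of -0.09. Among all genes with at least 10 CPM, 1.63% did so.

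Glial markers were low in all 12 libraries. Of 14 oligodendrocyte genes 11 were measured, and their summed level was 29.5 to 43.5 CPM in CL, 23.2 to 49.5 CPM in PCN and 15.0149 to 46.4 CPM in CM. Of 10 microglia genes 3 were measured and summed to 5.80 to 35.5 CPM in CL, 0.490 to 25.3 CPM in PCN and 2.89 to 27.5 CPM in CM. Slc4a4, the measured gene of the astrocyte list, had 1.41 to 6.62 CPM in CL, 0.301 to 18.6 CPM in PCN and 0 to 7.32 CPM in CM. The 4 measured genes of inhibitory and reticular neurons summed to 1.30 to 3.93 CPM in CL, 5.76 to 20.8 CPM in PCN and 14.9 to 30.3 CPM in CM. The sum of this list, of which 4 of 12 genes were measured, was lower in CL without overlap. None of the 4 genes was called or reached an unadjusted edgeR p below 0.05 against the mean of PCN and CM. Spp1 made up much of the sum, with 1.61 CPM in CL, 11.1 CPM in PCN and 17.8 CPM in CM, while Sst was at 0 in all 3. Gpr151, a habenula gene, had 3.58 to 14.2 CPM in CL, 0 to 10.7 CPM in PCN and 8.04 to 23.2 CPM in CM. Bsg, the measured gene of the vascular list, which neurons also express, had 164 to 283 CPM in CL, 227 to 273 CPM in PCN and 221 to 309 CPM in CM. The 4 measured genes of the hippocampal list summed to 574 to 737 CPM in CL, 599.5 to 799.6 CPM in PCN and 558 to 740.4 CPM in CM. Of these, Wfs1 and Prox1 alone averaged at least 10 CPM, and Prox1 is also on the list of thalamic transcription factors. The vascular and the hippocampal list both overlapped between the nuclei. The part of other cells in the differences above was not tested.

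CL was also set against the mean of the other 6 nuclei labelled by AAV from the striatum, PVT, IMD, PCN, CM, PF and SPA. PVT had 3 libraries and each of the others 4. Sex, age and amplification date of PVT, IMD, PF and SPA are not reported here. They were not terms in this fit, and their part in the calls was not tested. Here 138 genes were called, 0.835% of genes tested, 133 higher in CL (0.805%) and 5 lower (0.0303%), with 1097 or 6.64% at an unadjusted p below 0.05. Of the 138, 93 were predicted gene models, pseudogenes or small RNAs, and 32 had at least 10 CPM on the higher side, 27 higher in CL and 5 lower. Of the CL animals 3 also gave PVT or IMD libraries, and PCN and CM share animals, which this fit leaves out of account. With the replicate number as a block in a fit of only these groups, 139 genes were called, 34 of them among the 138. The count was 75 without CL replicate 3 and 79 without CL replicate 2. CL had the highest mean of the 7 nuclei for 15 of the 27. For 21 of the 27 the means of CL, PCN and CM all lay above those of PVT, IMD and SPA, and for 11 also above PF. The 27 were picked by a test that pools these nuclei, which favours a high place of CL. The share of all genes with this order was not counted.

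Genes of neuronal excitability were among those higher in CL. Scn1a, the sodium channel Nav1.1, averaged 459.9 CPM in CL, with 568 CPM in PCN, 437 CPM in CM and 140.4 to 309 CPM in the other 4 (log2 fold change 0.78 against all 6, adjusted p = 0.00596). Kcnc2, the Kv3.2 potassium channel, averaged 552 CPM in CL, with 520.4 CPM in PCN, 440.0 CPM in CM and 207 to 481 CPM in the other 4 (0.65, adjusted p = 0.0215). In both genes PCN and CM lay near CL. Atp2b2, a plasma membrane calcium pump, averaged 815 CPM in CL, with 939.9 CPM in PCN, 849.8 CPM in CM and 250.3 to 635 CPM in the other 4 (0.77, adjusted p = 0.000102). Slc24a2, a sodium-calcium exchanger that also carries potassium, averaged 664 CPM in CL, with 943 CPM in PCN, 511 CPM in CM and 158 to 462 CPM in the other 4 (0.97, adjusted p = 0.00119). None of these 4 was called between CL and the mean of PCN and CM, with an adjusted p of 1 for each.

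Other called genes act at synapses, in both directions. Chrna4, a nicotinic acetylcholine receptor subunit, averaged 467 CPM in CL, with 536 CPM in PCN, 475 CPM in CM and 97.4 to 345 CPM in the other 4 (log2 fold change 0.90 against all 6, adjusted p = 0.00956). Cplx1, a complexin, averaged 161 CPM in CL, with 242 CPM in PCN, 207 CPM in CM and 30.4 to 136 CPM in the other 4 (0.96, adjusted p = 0.0145). For both genes the means of PCN and CM were above that of CL. Opcml was higher by 1.04 on the log2 scale (adjusted p = 0.0196). Sema6a (1.38, adjusted p = 0.00189), the protocadherin Pcdh9 (0.75, adjusted p = 0.0115) and Rasgrp1, a calcium-regulated activator of Ras (0.70, adjusted p = 0.00787), were also higher. Single groups lay near CL, with Pcdh9 at 375 CPM in CL and 367 CPM in PF, and Rasgrp1 at 651 CPM in CL and 634 CPM in PCN.

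The 5 genes lower in CL than in the other 6 were Etl4 (log2 fold change -2.50, adjusted p = 0.000427), Cntnap5a (-3.07, adjusted p = 0.0443), Scg2 (-1.14, adjusted p = 0.0314), Nell1 (-1.06, adjusted p = 0.0175) and Nrxn3 (-0.999, adjusted p = 0.0245). For 4 of them CL had the lowest mean of the 7 nuclei, and for Nrxn3 PVT was lower. The 5 were picked by a test for a low level in CL, which favours such a place. Scg2 averaged 144 CPM in CL, against 194 CPM in PF, the next lowest, and 561 CPM in IMD, the highest. Nell1, a secreted protein with EGF repeats, averaged 86.3 CPM in CL and 135 to 265 CPM in the other 6.

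**Figure D5:**
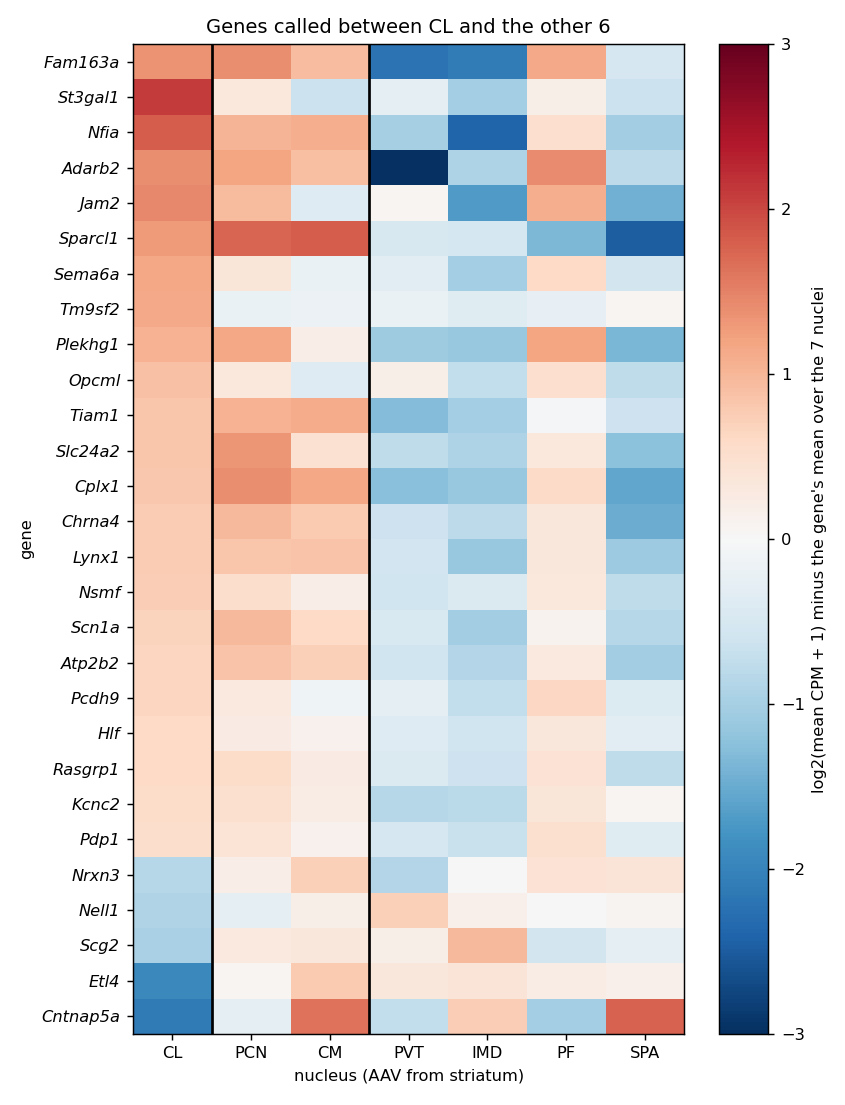
Mean level of each named gene called between CL and the other 6 nuclei labelled by AAV from the striatum, as log2 of CPM plus 1 minus the gene's mean over the 7 nuclei (colour, cut at 3 to either side), with CL in the first column. In the upper rows PCN and CM mostly share the colour of CL, and in the 5 lowest rows CL is among the lowest.

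The position of CL among all nuclei was described with 2 lists of genes that part striatum-labelled from cortex-labelled nuclei, chosen from earlier results on these same libraries and so no independent evidence. Over 17 genes of the striatal end the mean of log2(CPM + 1) was 5.43 in CL, rank 5 of 22, beside 5.16 in PCN and 5.73 in CM. Over 19 genes of the cortical end it was 4.84 in CL, rank 17 of 22, beside 5.04 in PCN and 4.80 in CM. CL lay between PCN and CM on both. At the striatal end no gene was called or reached an unadjusted p below 0.05 between CL and the mean of PCN and CM. At the cortical end 1 was higher and 3 lower at that level, with Sox5 called. Among all genes tested, 5.26% reached that unadjusted p and 0.0545% were called.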

How the data were processed

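The deposited table holds raw counts, whole numbers per gene, for 120 libraries and 16538 genes, as the authors made them; other deposited columns give reporter, sex, age, animal, cells and amplification date. The submitters' processing notes name cutadapt 1.16, STAR 2.5.3a, featureCounts 1.52 and the mm10 build; settings are not given in the sources used here. Per the labels' protocols the Ovation kit was used. Strand is not known to be used, so reads of genes overlapping on the other strand, as for Zfhx4, Dab1, Etl4, Nrxn3, Cnih3, Sox5, Cntnap5a and Rundc1, cannot be told apart. Positions are from the GENCODE annotation of mm10.

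All libraries entered 1 edgeR 4.0.16 model (R 4.3.3) with a coefficient for each of 24 groups, TMM factors, filterByExpr (minimum count 10, total 15, leaving 16527 genes) and the legacy quasi-likelihood test, two-sided. Genes were called below an adjusted p of 0.05 after Benjamini and Hochberg. CPM use TMM-scaled library sizes. Counting intervals are exact at 95% and cover counting error only, since no molecular identifiers were used. Scripts were tested on simulated data. Named genes were called genes with at least 10 CPM on the higher side and ranges apart, the 15 largest changes per direction (4 in the other comparisons), up to 3 called members per direction of each of 30 lists, and 13 fixed genes. Bmp2, Cnih3, Sox5, Rundc1, Scg2 in the first comparison, genes with only an unadjusted p below 0.05 and those from the DiI libraries were named after their values were seen. How many of all genes had CL ranges apart from those of PCN and CM was not counted, so ranges apart in a named gene are a description. The members and lists were chosen with earlier results of these data known.

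PCN and CM libraries of the same number came from 1 animal, per the metadata, and their deviations from the group means correlated at -0.0275 to 0.0664. Whether CL libraries were separate preparations beyond the animal is not stated. P-values of the main fit measure spread between libraries of a group. This spread was estimated over all 24 groups and not from the 12 libraries alone. None of 18 library pairs within the 3 groups agreed within sampling noise (chi-square 54 to 188 per degree of freedom). Alternatives were RLE factors, no filter, DESeq2 1.42.0, the newer quasi-likelihood method, the compared groups alone, a replicate block, summed animals, sex and date terms, female libraries, the DiI libraries, and leaving out each library with the trended dispersion and gene set kept. Limma 3.58.1 voom with the animal as a random block, and leaving out 2 libraries together, were chosen after seeing the data.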

Additional observations from a re-analysis of the deposited data

Results flagged for a closer look

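Of 102 groups of 4 libraries examined, 9 held a library set far from the other 3, where chance alone flags about 5%. PCN replicate 4 was made from 22 cells, beside 78 to 82 in the other PCN libraries, and it had the highest PCN level of Scg2 (579 CPM) and of Sema6a (82.9 CPM). PCN replicate 3 had the highest PCN level of Cntnap5a, 10.3 CPM, and of Fos, 88.1 CPM. In CM, replicate 1 had 3202 CPM of Rundc1, replicate 3 had 26.7 CPM of Cnih3 and replicate 4 had 5.93 CPM of Sox5, each far above the other 3 CM libraries. In CL, replicate 2 had 2.15 CPM of Pvalb and the other 3 at most 0.0437 CPM.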

How the results depend on the processing

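The number of genes called for CL against the mean of PCN and CM, 9 as reported, was 15 with edgeR's newer quasi-likelihood method, 399 with DESeq2 (both with all 9), 15 with the replicate block (4 of the 9), 2 with female libraries only (1 of the 9) and 0 without PCN replicate 4 and CL replicate 3 together, an alternative chosen after seeing the data. Other settings gave like counts but mostly other genes: 10 with animals summed (1 of the 9), and 13 each with only the compared groups and with limma voom (3 of the 9 each). Leaving out 1 library gave 0 to 8. For CL against PCN, 0 as reported, the count was 6 with the newer method and 385 with DESeq2, and 0 to 2 with 1 library left out. For CL against CM, 8 as reported, it was 15 with the newer method, 411 with DESeq2, 19 with only the compared groups (1 of the 8), 29 with the replicate block (2 of the 8), 15 with CM from its DiI libraries, and 0 to 7 with 1 library left out. For PCN against CM it was 424 with DESeq2 and 0 to 1 with 1 library left out. For CL against the other 6 nuclei, 138 as reported, it was 58 with the newer method, 292 with DESeq2, 226 with only the compared groups (78 of the 138), and 75 to 149 with 1 library left out. The cause of these changes was not tested. CL numbers mark animals other than those of PCN and CM, and same-numbered deviations correlated at -0.0374 to 0.0272, so the block pairs nothing there.

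No called autosomal gene changed direction under the 25 alternatives. Zfhx4 stayed called in 19 of 25, Etl4 in 18, Nrxn3 and Cnih3 in 13, Dab1 in 11 and Bmp2 in 9, and Sox5 in 13 of the 24 that kept it. Etl4, Nrxn3, Cnih3 and Sox5 were not called in a fit of only the 12 libraries. A reporter term could not be fitted beside the groups and was not run. With 4 CL libraries against 8 of PCN and CM, the main fit was limited. In a typical gene, a fitted difference under about 2-fold did not reach an unadjusted p below 0.05 there. A call in that fit after adjustment for the number of genes tested needed a larger difference. Other settings called some smaller differences. Opcml was called at a log2 fold change of 0.91 in a fit of only the 12 libraries (adjusted p = 0.0412).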
